A study of Mus musculus with 8 samples.

Results

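Cxcl13 and 3 other CXC chemokine genes that are usually counted as homeostatic, Cxcl14, Cxcl16 and Cxcl12, were followed in mouse bone marrow-derived dendritic cells (BMDCs) exposed to a plant extract. The members were chosen by symbol: 9 probe sets carry exactly 1 of these 4 symbols, out of 45037 probe sets tested and 18193 genes with a probe set of their own. For each gene the probe set selected on the highest mean log2 signal over all arrays is the main one, and the others are given beside it. The 4 genes were put together with results of these arrays already known, so their p-values, which come from the fit over all probe sets, are no independent support.

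The extract, [BF/S+L/Ep], is the butanol fraction of a stem and leaf extract of Echinacea purpurea. The groups were BMDCs exposed for 12 h to 75 μg/mL [BF/S+L/Ep] (extract-treated DCs), BMDCs kept for 12 h in the vehicle (DMSO-treated DCs), BMDCs exposed for 4 h to the same dose, and BMDCs kept for 4 h in the vehicle. All of them, treated cultures included, contained 0.1% DMSO and had been grown for 9 days with GM-CSF from the marrow of female BALB/c mice aged 6 weeks, from which the non-adherent cells were taken. Each group had 2 arrays, 8 in all. The titles only number them, and the paper calls them biological sample replicates. Neither states whether the 2 arrays of a group came from different mice.

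Chemokines are small secreted proteins that steer cells along a gradient by binding receptors coupled to inhibitory G proteins. Homeostatic members are made without infection and place cells in lymphoid organs: stromal cells and follicular dendritic cells make most of the Cxcl12 and Cxcl13 of such tissue, and myeloid cells can make Cxcl13 as well. Cxcl16 differs from the rest, since it is made as a membrane protein that also takes up oxidized lipoprotein and is released by cleavage.

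The start regions of Cxcl13 and Cxcl14 are shown because these were the members that rose with time. Windows from 250 bases before to 50 bases after the annotated start were taken from RefSeq on GRCm38.p6, where 3 of the 4 members have one. The genes lie at chr5:95956939-95961068 (Cxcl13), chr13:56288643-56296811 (Cxcl14), chr11:70454389-70459984 (Cxcl16) and chr6:117168535-117181368 (Cxcl12). Capitals mark the 4 motifs that were searched on both strands: a kB site (GGG, any 5 bases and CC), a STAT site (TTCNNNGAA), the AhR core (GCGTG) and a TATA box (TATAAA). The Cxcl13 window lies at chr5:95956689-95956988 on the plus strand and the Cxcl14 window at chr13:56296502-56296801 on the minus strand, around a start 260 bases inside the outermost end annotated for the gene.
Cxcl13: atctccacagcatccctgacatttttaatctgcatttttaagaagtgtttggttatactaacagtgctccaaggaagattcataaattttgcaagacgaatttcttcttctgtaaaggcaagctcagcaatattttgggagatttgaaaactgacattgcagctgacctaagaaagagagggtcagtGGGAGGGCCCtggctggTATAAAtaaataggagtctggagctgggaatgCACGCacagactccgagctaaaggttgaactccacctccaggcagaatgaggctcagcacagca
Cxcl14: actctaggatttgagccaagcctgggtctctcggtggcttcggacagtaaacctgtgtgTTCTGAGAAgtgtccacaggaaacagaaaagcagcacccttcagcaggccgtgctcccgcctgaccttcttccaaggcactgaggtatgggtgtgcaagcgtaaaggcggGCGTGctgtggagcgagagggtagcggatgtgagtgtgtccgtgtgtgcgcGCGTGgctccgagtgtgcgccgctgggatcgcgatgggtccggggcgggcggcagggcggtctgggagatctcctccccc
The Cxcl13 window held a kB site at -63 to -54 that reads as one on both strands, a TATA box at -46 to -41 and an AhR core on the minus strand at -14 to -10, counted from the start, and no STAT site. That of Cxcl14 held a STAT site at -191 to -183 and AhR cores at -81 and -30, with neither a kB site nor a TATA box. The Cxcl12 window, at chr6:117168285-117168584, held 1 kB site, on the minus strand at -36 to -27. Of 32851 windows of the same length, 50.8% held a kB site, 8.30% a STAT site, 32.4% an AhR core and 13.6% a TATA box. A match says only that these letters are there.

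The values are MAS5 signals, a brightness per probe set on a linear scale. Smell, pheromone and taste receptor genes, 86 probe sets in all, gave the background reference: their 95th percentile on each array, which lay between 66.5 and 75.6 on the treated arrays, against 79.5 and 107 on the DMSO arrays. Of all probe sets, 42.3% exceeded it on all 8 arrays. Among the members, 3 genes and 6 of 9 probe sets did so. The markers of conventional DCs (12 of 12) and of macrophages (9 of 9 measured) exceeded the reference on 4 or more arrays, as did 3 of 7 neutrophil, 5 of 11 stromal and endothelial, 1 of 5 follicular DC, 1 of 6 mast cell, 1 of 6 T and NK cell and 0 of 6 B cell markers. In such bulk RNA, fewer cells of a type and less RNA per cell cannot be told apart.

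Cxcl13 is the ligand that draws B cells and follicular helper T cells through Cxcr5. At its main probe set it read higher on each extract-treated array than on the DMSO arrays of its time. That difference passed only when averaged over both times, and Cxcl13 rose between 4 h and 12 h in both treatments. Its signals at 12 h were 3072 and 2600.1 in extract-treated DCs, against 1588 and 1562 in DMSO-treated DCs. At 4 h they were 547 and 473 in extract-treated DCs, against 328 and 319 in DMSO-treated DCs. At that probe set the 4 groups did not overlap and stood in the order 12 h with extract, 12 h with DMSO, 4 h with extract and 4 h with DMSO, from high to low. The means were 2836 ± 333 with extract and 1575 ± 18.3 with DMSO at 12 h, and 509.65 ± 52.4 with extract and 323.5 ± 5.94 with DMSO at 4 h (SD, n = 2 each). The treated duplicates lay further apart than the DMSO duplicates at both times.

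The treatment difference of Cxcl13 was 0.84 on the log2 scale at 12 h (SE 0.14, 95% interval 0.54 to 1.14, 1.79-fold) and 0.65 at 4 h (SE 0.14, interval 0.35 to 0.95, 1.57-fold). Neither passed adjustment over all probe sets in limma (adjusted p = 0.101 at 12 h and 0.462 at 4 h). Averaged over both times the difference was 0.75 (SE 0.098, interval 0.54 to 0.96, 1.68-fold) and passed, with an adjusted p = 0.0112 in limma and the treated arrays above the DMSO arrays of their time at 12 h and at 4 h. The treatment effects at 12 h and 4 h differed by 0.19 (interval -0.23 to 0.61, limma adjusted p = 1.0), so a change of the effect with time was not shown, nor was its absence. At the main probe set none of the 4 single-array ratios reached 2 at either time, with a range of 1.64 to 1.97 at 12 h and 1.44 to 1.71 at 4 h.

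The averaged call depended on which arrays were in the fit. It was lost when 1 of 5 arrays was left out, namely [BF/S+L/Ep] 12 h replicate 1 (0.69, limma adjusted p = 0.0755), DMSO 12 h replicate 1 (0.75, 0.0853) or 2 (0.74, 0.0683), or DMSO 4 h replicate 1 (0.76, 0.0695) or 2 (0.74, 0.0855). The dimmer probe set of Cxcl13, 1448859_at, had 1647 and 1456 in extract-treated DCs, against 797 and 924 in DMSO-treated DCs, at 12 h. At 4 h it had 316 and 232 in extract-treated DCs, against 270 and 184 in DMSO-treated DCs, where the groups overlapped. It therefore gave the same size of difference at 12 h (0.85, limma adjusted p = 0.430), a smaller one at 4 h (0.28, 0.997) and an average of 0.57 that did not pass (0.353). Its single-array ratios ran from 1.58 to 2.07 at 12 h, where 1 of 4 reached 2, and from 0.860 to 1.72 at 4 h.

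With time, Cxcl13 changed by 2.48 in extract-treated DCs (interval 2.18 to 2.77, limma adjusted p = 1.57e-06) and by 2.28 in DMSO-treated DCs (interval 1.98 to 2.58, limma adjusted p = 2.04e-06), on the log2 scale of 12 h against 4 h. In linear terms this was 5.56-fold with the extract and 4.87-fold with DMSO. At the main probe set every 12 h array was at least 4.76 times every 4 h array of its treatment. At the dimmer probe set the lowest such ratio was 4.60 with the extract and 2.95 with DMSO. The dimmer probe set rose by 2.51 in extract-treated DCs (limma adjusted p = 2.59e-05) and by 1.94 in DMSO-treated DCs (limma adjusted p = 2.68e-04). Signals of the 2 Cxcl13 probe sets followed each other with r = 0.986 over 8 arrays in 4 groups. The rise with time was thus present at both probe sets and in both treatments, and in DMSO-treated DCs it was larger than the averaged difference with the extract.

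**Figure D1:**
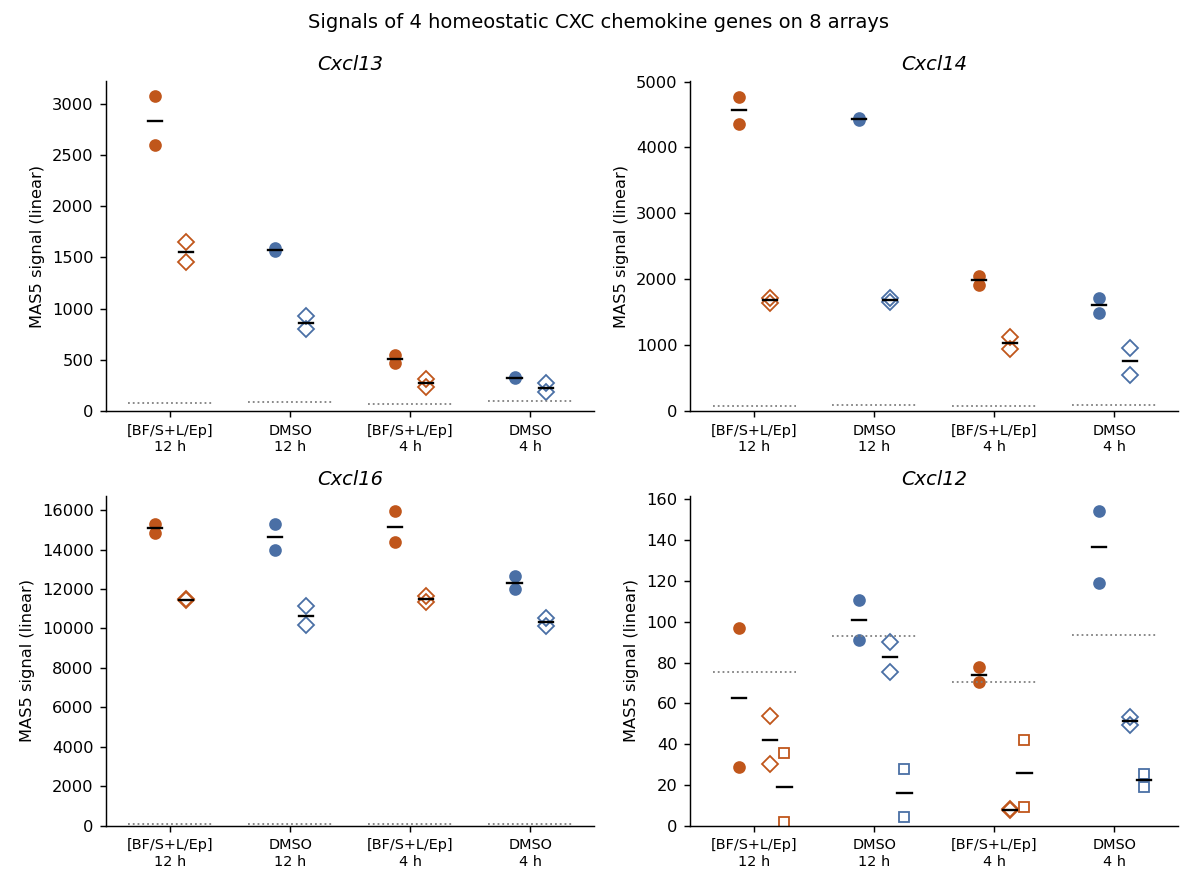
MAS5 signal (linear, from 0) of the 4 genes on each array, with extract-treated DCs in orange left of DMSO-treated DCs in blue, at 12 h and then 4 h. Filled circles are the main probe set, open symbols the other probe sets, black bars the mean of 2 arrays and dotted lines the mean background reference of the group. At its main probe set Cxcl13 separates all 4 groups, while its other probe set overlaps at 4 h. Cxcl14 separates the times, Cxcl16 lies at 11991 or above at its main probe set, and Cxcl12 lies near the reference.

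Cxcl14, a chemokine that attracts monocytes and DC precursors and whose signalling receptor is not settled, rose with time in both treatments and showed no called difference with the extract. At 12 h its main probe set read 4773 and 4361 in extract-treated DCs, against 4419.8 and 4453 in DMSO-treated DCs. At 4 h it read 2051 and 1915 in extract-treated DCs, against 1485.5 and 1719 in DMSO-treated DCs. The treated and DMSO arrays overlapped at 12 h, and at 4 h both treated arrays lay above both DMSO arrays. The difference was 0.04 at 12 h (interval -0.20 to 0.28, limma adjusted p = 0.989) and 0.31 at 4 h (interval 0.07 to 0.55, limma adjusted p = 0.977), and the 12 h interval ran from 0.872-fold to 1.21-fold. The averaged difference of 0.18 (limma adjusted p = 0.694) and the difference between the times of -0.27 (interval -0.61 to 0.07, limma adjusted p = 1.0) did not pass either.

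Between 4 h and 12 h Cxcl14 rose by 1.20 in extract-treated DCs (interval 0.96 to 1.44, 2.30-fold, limma adjusted p = 4.93e-05) and by 1.47 in DMSO-treated DCs (interval 1.23 to 1.71, 2.78-fold, limma adjusted p = 1.10e-05). Its dimmer probe set, 1418456_a_at, had 1712 and 1647 in extract-treated DCs, against 1648 and 1709 in DMSO-treated DCs, at 12 h. The corresponding 4 h signals were 1124 and 936 in extract-treated DCs, against 554 and 951 in DMSO-treated DCs. There the rise passed in DMSO-treated DCs (1.21, limma adjusted p = 0.00605), in which the 4 h duplicates lay furthest apart, and not in extract-treated DCs (0.71, limma adjusted p = 0.0871). Both probe sets placed every 12 h array above every 4 h array of its treatment.

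Cxcl16 exceeded the reference on all 8 arrays and passed no test. It had 14843 and 15305.5 in extract-treated DCs, against 13963 and 15294 in DMSO-treated DCs, at 12 h. At 4 h its signals were 14375 and 15938 in extract-treated DCs, against 11991 and 12652 in DMSO-treated DCs. The 4 h DMSO arrays were the 2 lowest of the 8 and lay below both treated arrays, with a difference of 0.30 (interval 0.07 to 0.52, 1.23-fold, limma adjusted p = 0.977). At 12 h the groups overlapped and the difference was 0.04 (interval -0.18 to 0.27, limma adjusted p = 0.984). The average was 0.17 (interval 0.01 to 0.33, limma adjusted p = 0.681) and the difference of the effects, 12 h minus 4 h, was -0.25 (interval -0.57 to 0.06, limma adjusted p = 1.0).

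With time, Cxcl16 gave -0.01 in extract-treated DCs (interval -0.23 to 0.22, limma adjusted p = 0.991) and 0.25 in DMSO-treated DCs (interval 0.02 to 0.47, limma adjusted p = 0.338). The upper ends of these intervals, 1.16-fold and 1.39-fold, lay below the lower ends for Cxcl13, which were 4.52-fold with the extract and 3.96-fold with DMSO. At the other probe set of Cxcl16, 1449195_s_at, signals were 11442 and 11485 in extract-treated DCs, against 10156.5 and 11136 in DMSO-treated DCs, at 12 h. At 4 h they were 11364 and 11668 in extract-treated DCs, against 10134 and 10539 in DMSO-treated DCs. That probe set had the treated arrays above the DMSO arrays at both times, by an average of 0.13 that did not pass (limma adjusted p = 0.752).

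Cxcl12, the Cxcr4 ligand that keeps blood-forming cells in the marrow, lay near the background. Its main probe set had 28.7 and 96.8 in extract-treated DCs, against 111 and 91.1 in DMSO-treated DCs, at 12 h. At 4 h it had 70.3 and 77.9 in extract-treated DCs, against 119 and 154 in DMSO-treated DCs. It exceeded the reference on 6 of 8 arrays, 1 of the 2 treated arrays at each time and all 4 DMSO arrays. The treated arrays were lower than the DMSO arrays at 4 h and overlapped with them at 12 h, and no difference passed, with -0.93 at 12 h (limma adjusted p = 0.896), -0.87 at 4 h (limma adjusted p = 0.997) and -0.90 on average (limma adjusted p = 0.714). The reference was itself lower on the treated arrays, and its part in this difference was not tested. Its 2 other probe sets, 1439084_at and 1417574_at, were under the reference on all 8 arrays, so no fold is given for them.

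**Figure D2:**
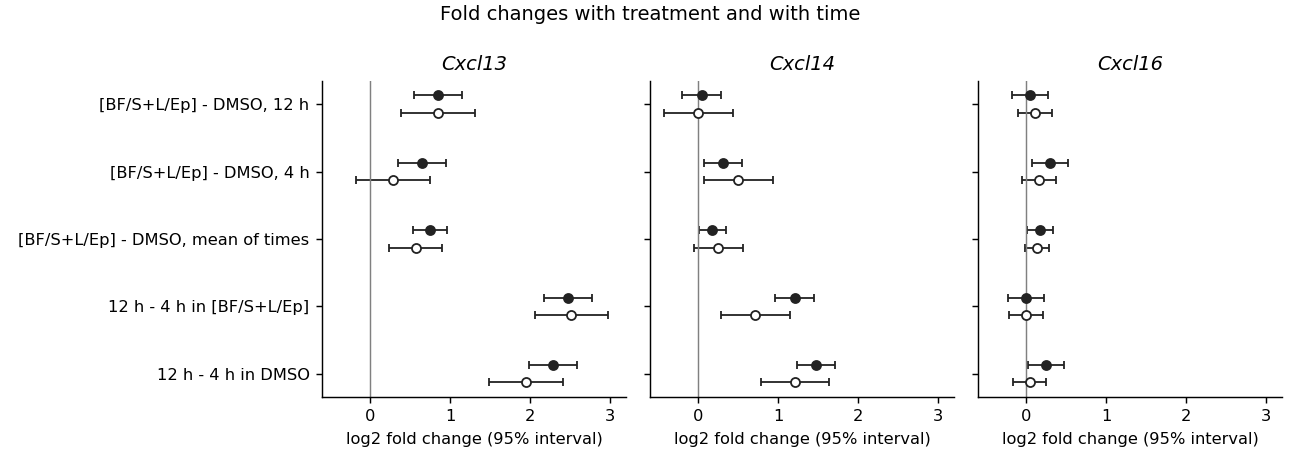
Log2 fold changes in limma with 95% intervals for Cxcl13, Cxcl14 and Cxcl16, with the main probe set filled and the other open. The treatment differences, [BF/S+L/Ep] minus DMSO, stand above the time differences, 12 h minus 4 h; the time intervals of Cxcl13 begin at 1.98 or above for the main probe set, while those of Cxcl16 end at or below 0.47.

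Across all probe sets the members' calls compare as follows. With treatment, 0 of 4 main probe sets passed at 12 h, where limma called 0.0155% of all probe sets higher and 0.00444% lower (9 in all, with 2684 under an unadjusted p of 0.05). At 4 h 0 of 4 passed as well, where 0.00444% were called higher and 0% lower (2 in all, with 2238 under an unadjusted p of 0.05). Averaged over the times 1 of 4 was higher, Cxcl13, against 0.0888% of all probe sets higher and 0.0178% lower. For the difference of the effects 0 of 4 passed, as did 0% of all probe sets in either direction (1647 under an unadjusted p of 0.05). Cxcl13 had the 17th smallest p of 45037 at 12 h, the 41st at 4 h and the 16th for the average.

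With time, 2 of 4 main probe sets, Cxcl13 and Cxcl14, were called higher in extract-treated DCs, against 1.55% of all probe sets higher and 1.31% lower, and the same 2 genes in DMSO-treated DCs, against 1.18% higher and 0.921% lower. Over all 9 probe sets 3 were called higher in extract-treated DCs and 4 in DMSO-treated DCs. Counted by separation of the arrays, 1 of 4 main probe sets had both treated arrays above both DMSO arrays at 12 h, against 15.1% of all probe sets. At 4 h 3 of 4 were higher in this way, against 15.1%, and 1 was lower, against 17.6%. Over all 9 probe sets 4 were higher and 2 lower at 4 h, the lower ones both of Cxcl12. At 12 h 3 of the 9 were higher. Only Cxcl13 was higher in this way at both times among the main probe sets, against 3.34% of all. All 12 h arrays lay above all 4 h arrays for 2 of 4 in extract-treated DCs, against 22% of all probe sets, and for 3 of 4 in DMSO-treated DCs, against 22.5%. Cxcl12, near the reference, separated the other way in DMSO-treated DCs, with both 12 h arrays below both 4 h arrays. The median log2 difference of the 4 main probe sets was 0.17 for the averaged treatment, against -0.02 over all probe sets, 0.60 with time in extract-treated DCs, against 0.02, and 0.86 with time in DMSO-treated DCs, against 0.03.

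**Figure D3:**
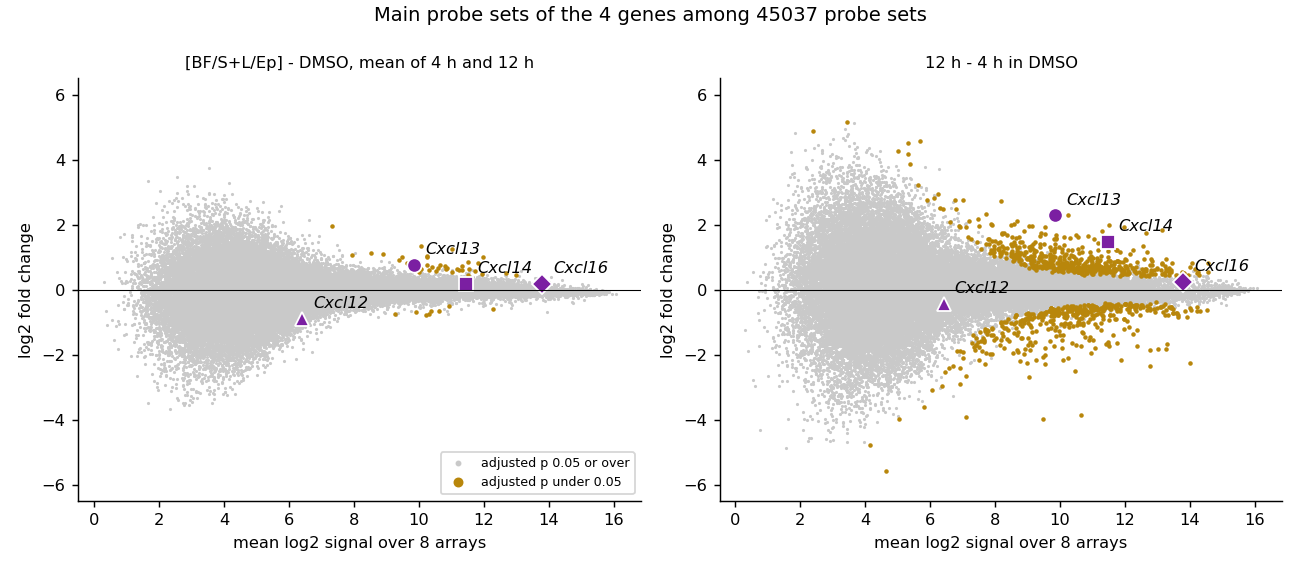
Mean log2 signal over 8 arrays against the log2 fold change for all 45037 probe sets, with those under an adjusted p of 0.05 in gold and the main probe sets of the 4 genes in purple. Left, treatment averaged over both times, where Cxcl13 lies at 0.75; right, 12 h against 4 h in DMSO-treated DCs, where Cxcl13 lies at 2.28, Cxcl14 at 1.47, Cxcl16 at 0.25 and Cxcl12 at -0.43.

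Some macrophage markers rose with time beside Cxcl13 and Cxcl14. In extract-treated DCs 4 of 9 rose (Adgre1, Cd14, C1qa, C1qb) and Mrc1 fell, against 1.55% of all probe sets higher and 1.31% lower. In DMSO-treated DCs the same 4 and C1qc rose, against 1.18% higher and 0.921% lower. There Csf1r (-0.03), Fcgr1 (-0.31), Mrc1 (-0.41) and Mertk (0.61) did not pass. The summed macrophage signal was 81265 to 87357 at 12 h, against 69759.5 to 69924 at 4 h, with the extract. With DMSO it was 82865 to 83241 at 12 h, against 71198 to 71299 at 4 h. Of this DMSO sum, Cd14 held 19514 and 19127 at 12 h, against 12885 and 10963 at 4 h. No marker of the 8 cell type lists was called in a treatment contrast. Summed conventional DC markers gave 214106 to 221662 at 12 h, against 220148 to 234949 at 4 h, with the extract. With DMSO they gave 217859 to 231748 at 12 h, against 223809 to 224240 at 4 h. With time, 2 of 12 conventional DC markers also rose. Zbtb46 did so by 0.70 in extract-treated DCs (limma adjusted p = 0.0138) and by 0.78 in DMSO-treated DCs (limma adjusted p = 0.00930). Batf3 rose by 0.70 in DMSO-treated DCs (limma adjusted p = 0.0144), against a value of 0.50 in extract-treated DCs that did not pass (limma adjusted p = 0.0705). Of 6 T and NK cell markers Cd8a alone passed, with 304 and 259 at 12 h, against 73.8 and 116 at 4 h, in extract-treated DCs (limma adjusted p = 0.0428). The other 5, Cd3e, Cd3d, Cd3g, Cd4 and Ncr1, were under the reference on every array. No marker of the other 5 lists was called with time. Of 5 follicular DC markers, Cr2, Fcer2a and Tnfsf11 were under the reference on every array, whereas Madcam1 was over it on 3 arrays and Vcam1 on 8. Of 6 B cell markers 5 were under it on every array and Pax5 was over it on 3. Of 11 stromal and endothelial markers Pdgfra, Lum and Pecam1 were under it on every array, whereas Lepr and Kdr were over it on all 8. The part of these markers in the rise of Cxcl13 and Cxcl14 was not tested.

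The receptors were read next. Cxcr4, the receptor of Cxcl12, had 3928 and 4524 in extract-treated DCs, against 4548 and 4601 in DMSO-treated DCs, at 12 h. At 4 h it had 3584 and 3382 in extract-treated DCs, against 3416 and 3133 in DMSO-treated DCs. It rose with time in DMSO-treated DCs (0.48, limma adjusted p = 0.0335), whereas the value in extract-treated DCs was 0.28 (limma adjusted p = 0.244), and treatment gave -0.01 on average (limma adjusted p = 0.985). Ackr3, which binds and removes Cxcl12, was above the reference on 6 arrays at signals of 49.3 to 145. Cxcr5, the receptor of Cxcl13, was under the reference on all 8 arrays, and Cxcr6, the receptor of Cxcl16, on 7 of 8, whereas both ligands exceeded it on all 8.

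Among genes that cut or hold the members (12 of 13 with a probe set, 10 over the reference on 4 or more arrays), none was called with treatment. The median of these 10 was -0.007 for the averaged treatment. The 23406 probe sets over the reference on 4 or more arrays had a median of -0.0015. With time it was 0.47 in extract-treated DCs and 0.38 in DMSO-treated DCs, each against 0.02 over the same 23406. Adam17, a protease that can shed Cxcl16, rose by 0.64 with time in extract-treated DCs (limma adjusted p = 0.00295) and by 0.51 in DMSO-treated DCs (limma adjusted p = 0.0152). Adam10, the main sheddase of Cxcl16 in resting cells, had values of 0.39 and 0.32 for the same comparisons that did not pass (limma adjusted p = 0.0707 with the extract and 0.180 with DMSO). Sdc1, a heparan sulfate proteoglycan that can hold chemokines at the surface, rose by 0.56 with the extract (limma adjusted p = 0.0345) and by 0.61 with DMSO (limma adjusted p = 0.0246). The gelatinase gene Mmp9 rose in both treatments, and Mmp14, a membrane protease that can clip Cxcl12, rose in extract-treated DCs by 0.64 (limma adjusted p = 0.00937), against a value of 0.31 in DMSO-treated DCs that did not pass (limma adjusted p = 0.271). Whether these rises differ between treatments was tested only by the difference of the effects, which no gene of these lists passed. With averaged treatment Mmp14 gave 0.41 (limma adjusted p = 0.129) and Sdc1 gave -0.19 (limma adjusted p = 0.723), and neither passed. The treated Mmp14 arrays lay above the DMSO arrays of their time at 12 h and at 4 h, as for 3.34% of all probe sets.

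In lymphoid stroma Cxcl13 is induced through the lymphotoxin receptor and the alternative NF-κB pair of Relb and Nfkb2. Of 9 measured genes of that route, 7 over the reference on 4 or more arrays, none passed with treatment and both of the pair rose with time. Relb had 5057 and 5306 in extract-treated DCs, against 4231 and 4459 in DMSO-treated DCs, at 12 h. Its 4 h signals were 2458 and 2837 in extract-treated DCs, against 2708 and 2025 in DMSO-treated DCs. Its rise with time was 0.97 with the extract (limma adjusted p = 0.00134) and 0.89 with DMSO (limma adjusted p = 0.00318), and the averaged treatment gave 0.21 (limma adjusted p = 0.694). Nfkb2 rose by 0.55 with the extract (limma adjusted p = 0.0469) and by 0.61 with DMSO (limma adjusted p = 0.0326). The median of the 7 was 0.17 for the averaged treatment, against -0.0015 over the 23406 probe sets over the reference on 4 or more arrays. With time it was 0.19 in extract-treated DCs and 0.18 in DMSO-treated DCs, each against 0.02 over the same 23406.

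Of 13 measured genes that carry chemokine receptor signals, all over the reference on 4 or more arrays, only Rgs1, which shortens such signals, passed, with a rise over time of 0.98 in extract-treated DCs (limma adjusted p = 1.23e-04) and 1.10 in DMSO-treated DCs (limma adjusted p = 4.89e-05). With averaged treatment Rgs2, of the same family as Rgs1, gave -0.21 (limma adjusted p = 0.567) and Arrb1, an arrestin that uncouples such receptors, gave 0.20 (limma adjusted p = 0.596), and neither passed. The homeostatic CC ligands (5 of 9 with a probe set, 4 over the reference on 4 or more arrays) held 1 called gene. Ccl19, Ccl21a, Ccl21b and Ccl21c had no probe set of their own. The called gene was lower with time, where 1.31% of all probe sets were called lower in extract-treated DCs and 0.921% in DMSO-treated DCs. Ccl17, which attracts Ccr4-bearing T cells, fell with time by 2.32 in extract-treated DCs (limma adjusted p = 7.64e-07) and by 2.25 in DMSO-treated DCs (limma adjusted p = 3.71e-07), the opposite direction to Cxcl13. Its averaged treatment difference was -0.0028 with an interval of -0.17 to 0.16. Ccl22, over the reference on all 8 arrays, gave 0.27 with time in extract-treated DCs (limma adjusted p = 0.247). In DMSO-treated DCs it gave 0.29 (limma adjusted p = 0.245), and neither passed. Ccl28 and Ccl25 were near the reference, each over it on 5 of 8 arrays, at signals of 64.8 to 106 for Ccl28 and 32.5 to 126 for Ccl25, and neither gene passed with treatment or time.

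Of the inflammatory CXC ligands, 3 neutrophil attractants were called with averaged treatment, as Cxcl13 was. Cxcl2 differed with averaged treatment by 0.84 (limma adjusted p = 0.00194), Cxcl3 by 1.01 (limma adjusted p = 0.00108) and Ppbp by 1.26 (limma adjusted p = 6.93e-04), beside 0.75 for Cxcl13. These were the 3 called of 8 ligands of Cxcr2 and related genes, where 0.0888% of all probe sets were called higher. Of the 8, 6 were over the reference on 4 or more arrays. The median of the 6 was 0.55, against -0.0015 over the 23406 probe sets that met the same rule. By time point, Cxcl2 and Ppbp were called at 12 h and Cxcl3 at 4 h, where Cxcl13 was not. With time 4 of these 6 rose in extract-treated DCs, against 1.55% of all probe sets called higher, and 3 in DMSO-treated DCs, against 1.18%. Cxcl5, over the reference on only 2 arrays and so outside the 6, was also called higher with time in DMSO-treated DCs (limma adjusted p = 0.0204). Of 3 interferon-induced ligands none passed with treatment. Cxcl10 rose with time by 1.36 in extract-treated DCs (limma adjusted p = 0.00142) and 1.15 in DMSO-treated DCs (limma adjusted p = 0.00587). Cxcl11 was under the reference on both 4 h DMSO arrays. With those signals set to the reference, it was at least 1.98-fold higher at 12 h in DMSO-treated DCs, a bound that was not tested. The fit of its signals as deposited was called with time in DMSO-treated DCs (limma adjusted p = 0.0379) and not in extract-treated DCs (limma adjusted p = 0.410).

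**Figure D4:**
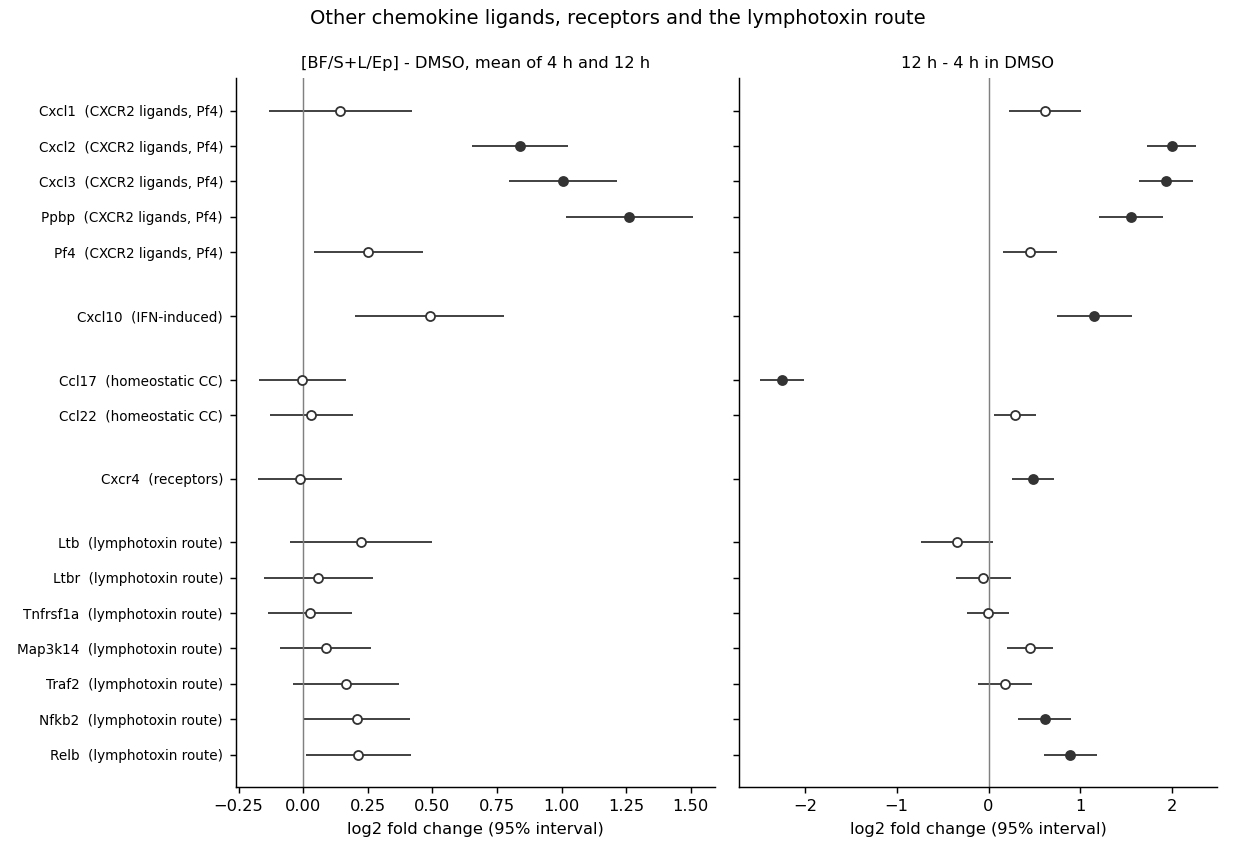
Log2 fold changes with 95% intervals for ligands, receptors and lymphotoxin route genes above the reference on all 8 arrays, with filled points where the limma adjusted p was under 0.05. Left, [BF/S+L/Ep] minus DMSO averaged over both times, where Cxcl2, Cxcl3 and Ppbp are filled at 0.84, 1.01 and 1.26; right, 12 h minus 4 h in DMSO-treated DCs, where Ccl17 lies at -2.25.

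The genes whose log2 signals most resembled each member were sought among 10875 genes by Pearson's r over the 8 arrays. The arrays share 2 times and 2 treatments, so r here describes a shared pattern over 4 groups. Cxcl13 was most like Cxcl2 (r = 0.995), Tlr2, a receptor for bacterial lipoproteins (0.993), the NF-κB regulators Nfkbie (0.992) and Nfkbiz (0.992), and the kinase Jak1 (0.990). Sizes differed within that set: with time in DMSO-treated DCs Cxcl2 rose by 1.99, Nfkbiz by 1.66, Nfkbie by 0.75 and Tlr2 by 0.57, beside 2.28 for Cxcl13, and Jak1 gave 0.22, which did not pass. With averaged treatment Cxcl2 alone of the 5 passed. Of all genes compared, 381 had an r over 0.9 with Cxcl13.

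Cxcl14 was most like Tlr1, the partner of Tlr2 (r = 0.991), Fam20c, a kinase of secreted proteins (0.990), the fractalkine receptor Cx3cr1 (0.990), the protease inhibitor Serpinb1b (0.990) and Mtpap, a mitochondrial poly(A) polymerase (0.990). In extract-treated DCs Tlr1 rose with time by 2.64, Cx3cr1 by 1.44, Fam20c by 1.25 and Serpinb1b by 1.16, beside 1.20 for Cxcl14, and Mtpap gave 0.16, which did not pass (limma adjusted p = 0.622). None of the 5 passed with treatment. An r over 0.9 was found for 423 genes with Cxcl14, for 14 with Cxcl16 and for 10 with Cxcl12. The closest genes were Hapln3 for Cxcl16 (0.962) and Sec14l2 for Cxcl12 (0.955), neither of which passed a test. Genes that rise clearly with time correlate over these arrays by design. The higher counts for Cxcl13 and Cxcl14 therefore add nothing to their rise with time.

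**Figure D5:**
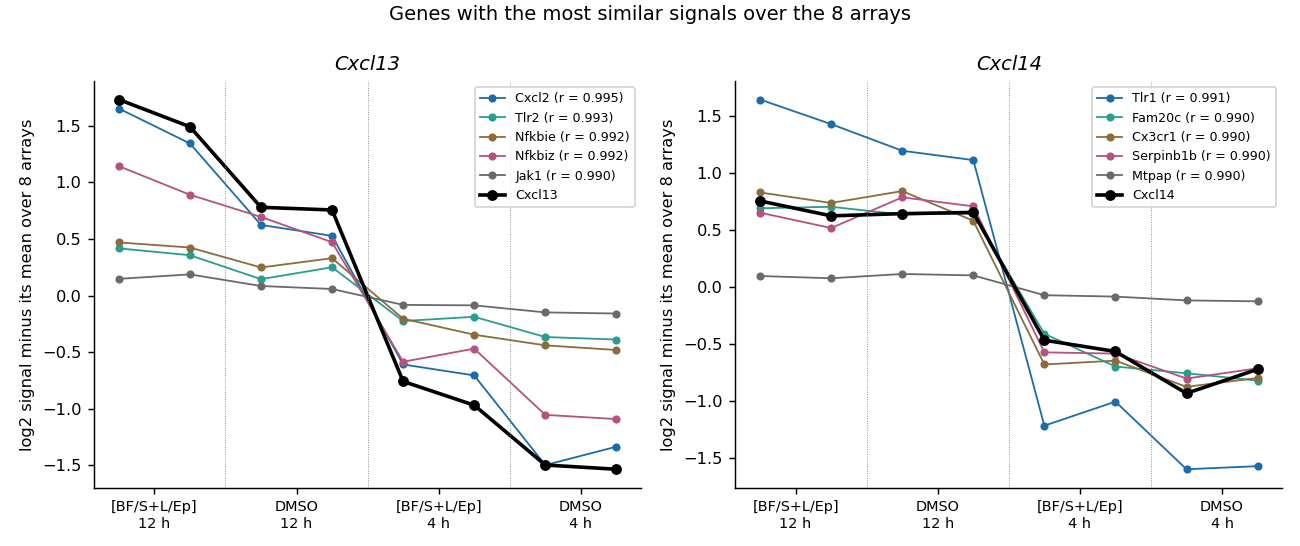
Log2 signal minus the gene's own mean over 8 arrays for Cxcl13 (left, black) and Cxcl14 (right, black) with the 5 genes most like each, 2 arrays per group and [BF/S+L/Ep] left of DMSO at 12 h and then 4 h; lines only join the values of a gene. Cxcl13 and Cxcl2 (r = 0.995) step down across all 4 groups, whereas Cxcl14 and Tlr1 (r = 0.991) differ mainly between 12 h and 4 h.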

How the data were processed

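RNA of mouse BMDCs, 2 arrays in each of 4 groups, was hybridized to Affymetrix Mouse Genome 430 2.0 arrays. The values used are linear MAS5 signals (intensity) as deposited; each array's trimmed mean, 2% off each end, was 500.0. No source used here gives a version of MAS5. Of 45101 probe sets, 64 controls were left out, and symbols came from the platform annotation (34945 probe sets with 1 symbol, 932 with several, 9160 with none).

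All 8 arrays entered 1 limma 3.58.1 fit of 4 group means to log2 signals (R 4.3.3, statmod 1.5.0), with trended moderation by intensity (4 residual and 8.833 prior degrees of freedom). Tests were two-sided, Benjamini-Hochberg adjusted over 45037 probe sets, with a threshold of 0.05. The number of arrays limits the precision. Probe set levels were not compared between genes. Figures used Python 3.11.15 and matplotlib 3.10.9.

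The members and gene lists were chosen with earlier results of these data known. Named are all members and receptors, every list gene called with treatment, the 2 list genes with the smallest averaged treatment p (over the reference on 4 or more arrays) and the 5 genes most like each member. List genes called with time and cell markers were named after their values were seen.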

Additional observations from a re-analysis of the deposited data

Results flagged for a closer look

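For Ackr3 the treated and DMSO arrays separated in opposite directions at the 2 times: 125 and 119 in extract-treated DCs, against 143 and 145 in DMSO-treated DCs, at 12 h, and 93.4 and 99.9 with the extract, against 49.3 and 84 with DMSO, at 4 h. The treatment effects differed by -0.82 on the log2 scale, 12 h minus 4 h, which did not pass (limma adjusted p = 1), and both 4 h DMSO arrays were under the reference. Cxcr6 separated the other way, with 63.7 and 88.7 in extract-treated DCs, against 6.2 and 41.7 in DMSO-treated DCs, at 12 h, and 2.1 and 38.5 with the extract, against 50 and 57 with DMSO, at 4 h. The fitted difference of the effects was 4.80 (limma adjusted p = 1), on signals under the reference on 7 of 8 arrays.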

How the results depend on the processing

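Over 420 combinations of a member's result and a setting, 401 kept the direction and the side of the threshold. Most of these results were uncalled to begin with, so that count says little about the calls. The only treatment call, the averaged difference of Cxcl13, was kept in 10 of 18 settings. The averaged difference of Cxcl13 no longer passed in limma without the intensity trend (0.75, adjusted p = 0.462), at its dimmer probe set (0.57, 0.353) or with the mean of its probe sets (0.66, 0.0754), and with 1 array left out it lay between 0.69 and 0.81 (0.0271 to 0.0855), lost for 5 of 8 arrays. Without the trend no probe set passed in any comparison, so the rises with time were lost too, for Cxcl13 (2.48 with the extract, adjusted p = 0.0912, and 2.28 with DMSO, 0.116) and Cxcl14 (1.20 with the extract, 0.144, and 1.47 with DMSO, 0.116). The cause was not tested. Cxcl14 with time in extract-treated DCs also failed at its dimmer probe set (0.71, 0.0871).

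Values near 0 changed sign: Cxcl14 at 12 h (-0.025 without [BF/S+L/Ep] 12 h replicate 1, leave-one-out range -0.025 to 0.11), Cxcl16 at 12 h (-0.021 without DMSO 12 h replicate 1, range -0.021 to 0.11), Cxcl16 with time in extract-treated DCs (0.083 with quantile normalization, leave-one-out range -0.081 to 0.068). So did Cxcl12 with time in extract-treated DCs (0.39 without [BF/S+L/Ep] 12 h replicate 1, leave-one-out range -1.37 to 0.39). Its other probe sets, under the reference on all 8 arrays, were not used as alternatives, alone or in a mean. Without that array its difference at 12 h was -0.053 (leave-one-out range -1.81 to -0.053) and its average -0.46 (range -1.34 to -0.46). Uncalled with all arrays and with any left out, the Cxcl14 difference at 4 h lay between 0.21 and 0.42, and the difference of the effects between -0.38 and -0.17 for Cxcl14 and 0.071 and 0.31 for Cxcl13.

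Counts of called probe sets moved more. At 12 h 9 became 4 with an offset of 50, 0 without the trend, 3 with only the 4 arrays compared and 0 to 12 with 1 array left out. At 4 h 2 became 1 with the offset, 0 without the trend, 1 with only 4 arrays and 0 to 3 with 1 array left out. The averaged 48 became 31 with arrays centred on their medians, 0 without the trend and 8 to 54 with 1 array left out, and the difference gave 0 to 1. With time in extract-treated DCs 1289 became 713 with centred arrays, 0 without the trend, 711 with only 4 arrays and 481 to 1089 with 1 array left out, and with time in DMSO-treated DCs 948 became 505 with centred arrays, 0 without the trend and 310 to 1013 with 1 array left out.

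Same-numbered arrays did not deviate together (correlations of -0.03 to 0.11 between groups), so the numbers were not treated as pairs. With the replicate number as a block (replicate block), the averaged difference of Cxcl13 stayed at 0.75 (limma adjusted p = 0.00813), no member's call changed, and the count at 4 h was 4. With the 90th percentile as reference, Cxcl12 was above it on 7 arrays. Cxcl12 lay so close to the background that its fitted log2 differences should not be read as folds. They enter the medians and counts of the 4 main probe sets all the same.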
